A study of Mus musculus with 6 samples.

Results

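Interferon gamma and the machinery through which cells sense interferons were read in splenic NK1.1+ cells of 3 TLR7tg mice and 3 C57BL/6 (B6) wild-type mice on an Illumina mouse BeadArray. The 9 genes were Ifng itself, the receptor chains Ifngr1, Ifngr2, Ifnar1 and Ifnar2, the kinases Jak1, Jak2 and Tyk2, and Stat2, found by their symbols in the platform annotation, each through its brightest probe. They hold 21 probes. A signal of 6.9 on the log2 scale marks detection, and 18 of the probes reached it in 3 or more mice. Of the 19057 genes with a probe 9173 were measured in this sense, among them 8 of the 9. TLR7tg mice carry a Tlr7 transgene and are named as a lupus model in the series title. The promoter of the transgene, the sort and the age of the mice are not stated in the labels. Sample labels name NK1.1+ cells only for TLR7tg and NK cells for B6, although the design text uses NK1.1+ for both groups. One identifier appears in 2 titles, those of TLR7tg replicate 1 and B6 replicate 1, and the remaining labels of TLR7tg replicate 1 give another.

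Interferon gamma is the type II interferon, made mainly by NK cells and T cells. It binds a receptor of Ifngr1 and Ifngr2 chains, on which Jak1 and Jak2 are activated. Type I interferons bind Ifnar1 and Ifnar2, which work with Tyk2 and Jak1, and signal through the ISGF3 complex that contains Stat2 and Irf9. In NK cells, interleukin 12 acting through Stat4 and interleukin 18 are known inducers of Ifng.

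Tlr7 was measured first, since it is the gene of the transgene. Its normalised log2 signal was 13.04, 14.45 and 13.92 in the TLR7tg mice, against 8.48, 9.39 and 9.53 in the B6 mice, a difference of 4.67 (SE 0.38, limma adjusted p = 0.000248), and no TLR7tg mouse overlapped a B6 mouse. NK cell markers went the other way. Over all genes, limma called 7.74% higher and 6.97% lower, the shares to set beside the marker counts that follow. Of 20 measured markers, 19 fell and 0 rose by limma (0 with an unadjusted p under 0.05), and their summed linear signal was 5565 to 17723 in TLR7tg mice and 107106 to 120092 in B6 mice. Klrb1c, the gene of NK1.1, differed by -2.17, and Ncr1, Klrc1, Klrc2, Eomes and Itga2 stayed under 6.9 in each TLR7tg mouse, so that they were measured only through the B6 mice (these markers are named outside the rule for named genes). Of 8 T cell markers 4 fell and 0 rose by limma (7 lower and 0 higher at an unadjusted p under 0.05), with sums of 2448 to 2721 in TLR7tg mice and 6536 to 8479 in B6 mice. Of 26 monocyte and macrophage markers 12 rose and 2 fell, with sums of 101540 to 112771 in TLR7tg mice and 30400 to 54149 in B6 mice. Of 12 neutrophil markers 11 rose and 0 fell by limma (0 at an unadjusted p under 0.05), with sums of 48100, 95805 and 8910 in TLR7tg replicates 1, 2 and 3 and of 2128 to 2239 in B6 mice. TLR7tg replicate 3 had the lowest neutrophil sum and the highest NK sum of its group. Of 6 B cell markers 0 passed by limma (1 lower at an unadjusted p under 0.05), of 8 plasmacytoid dendritic cell markers 1 fell, and of 10 erythroid markers 5 rose. In these lists, 1 T cell marker was under 6.9 in every TLR7tg mouse, and 2 monocyte markers and 1 erythroid marker were so in every B6 mouse. Markers measured through only 1 group had to differ to pass the filter. In such bulk samples, fewer cells of a type and less RNA per cell cannot be told apart.

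Of the 8 measured genes, Ifngr2 rose, Ifng and Jak1 fell, and Ifngr1, Ifnar2, Jak2, Tyk2 and Stat2 did not pass the test. Among all genes 7.74% were called higher, 6.97% lower and 14.7% in either direction, against 37.5% of these 8 genes. The groups did not overlap in 5 of the 8, or 62.5%, where 32.7% of all genes had groups that did not overlap. The median difference of the 8 genes was -0.08, and that of all genes was -0.06. With so few genes, chosen with earlier results known, these shares describe the genes and no more.

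**Figure D1:**
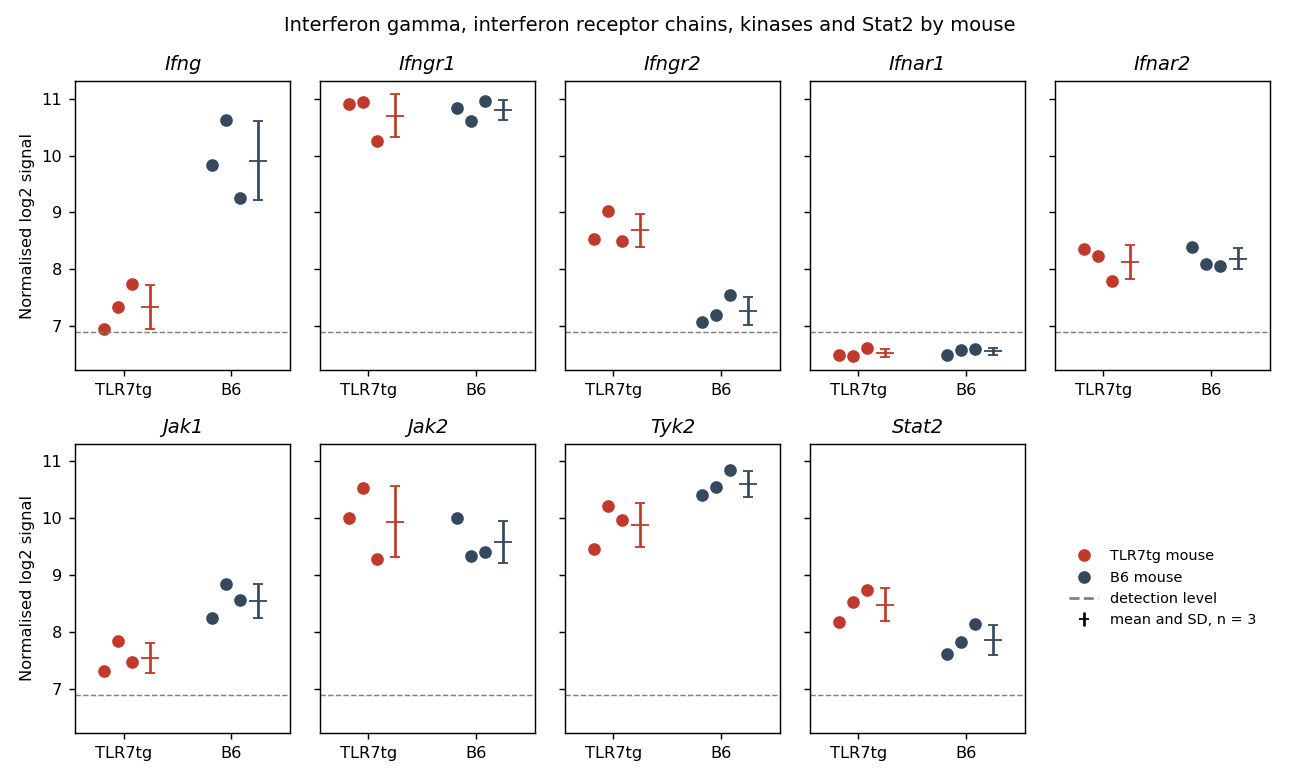
Normalised log2 signal of each gene in each mouse (y axis), TLR7tg on the left and B6 on the right of each panel, with the mean and SD (n = 3) beside the points and the detection level of 6.9 as a dashed line. Ifng lies between 6.96 and 7.74 in TLR7tg mice, below all B6 mice, Ifngr2 lies above all B6 mice, and Ifnar1 is under the dashed line in every mouse.

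The ligand fell. Ifng had log2 signals of 6.96, 7.34 and 7.74 in TLR7tg mice, against 9.84, 10.63 and 9.25 in B6 mice. Every TLR7tg mouse was below every B6 mouse, with a gap of 1.51 between the nearest mice of the groups, and TLR7tg replicate 1 was just above the detection level. The mean was 7.35 ± 0.39 in TLR7tg and 9.91 ± 0.69 in B6 (SD, n = 3 each), and Ifng fell by 2.56 (SE 0.34, limma adjusted p = 0.00173), or 5.90-fold lower in TLR7tg. Ranked from the lowest difference, Ifng was number 54 of the 9173 genes. Its second probe, at 6.87, 7.49 and 7.91 in TLR7tg mice against 9.13, 10.25 and 9.23 in B6 mice, fell by 2.11 (limma adjusted p = 0.00449), so both probes gave the same call. On the technical arrays of replicate 1, before normalisation, the brightest probe had linear intensities of 181 and 249 in TLR7tg and of 2505 and 2468 in B6. The array names of replicate 1 carry the same number in both groups, which is read here as a shared slide. The labels do not call it a slide, and the slides of the other 4 mice are not known. Each difference given for the shared slide, here and below, sets 1 TLR7tg mouse against 1 B6 mouse. The Ifng difference was -2.88 on the shared slide and -2.40 among the other 4 mice.

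The promoters of Ifng, Ifngr2 and Stat2 are shown because these genes stand for the ligand, the receptor and the signalling end of the pathway. The windows run from 250 bases before to 50 bases after the annotated start, 5′ to 3′, from RefSeq on GRCm38.p6, which held all 9 genes. Capitals mark matches on either strand to a gamma-activated site (TTCNNNGAA), an interferon-stimulated response element core (GAAA, any 2 bases, GAAA), a T-box core (GGTGTG) or a TATA box (TATAAA). The Ifng window is chr10:118440796-118441095 on the plus strand, the Ifngr2 window chr16:91546809-91547108 on the plus strand, and the Stat2 window chr10:128270248-128270547 on the plus strand.
Ifng: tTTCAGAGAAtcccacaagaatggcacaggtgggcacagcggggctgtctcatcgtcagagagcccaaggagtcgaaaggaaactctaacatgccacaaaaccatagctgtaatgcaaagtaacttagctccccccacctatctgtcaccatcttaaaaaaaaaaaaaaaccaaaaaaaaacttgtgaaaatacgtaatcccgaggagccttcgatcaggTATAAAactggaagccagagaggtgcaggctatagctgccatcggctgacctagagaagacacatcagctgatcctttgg
Ifngr2: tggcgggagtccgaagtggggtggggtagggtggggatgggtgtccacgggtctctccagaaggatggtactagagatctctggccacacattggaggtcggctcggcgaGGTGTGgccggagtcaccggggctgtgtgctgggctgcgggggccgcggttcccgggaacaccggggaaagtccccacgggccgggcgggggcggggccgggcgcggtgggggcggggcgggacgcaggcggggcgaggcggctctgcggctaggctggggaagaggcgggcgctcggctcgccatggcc
Stat2: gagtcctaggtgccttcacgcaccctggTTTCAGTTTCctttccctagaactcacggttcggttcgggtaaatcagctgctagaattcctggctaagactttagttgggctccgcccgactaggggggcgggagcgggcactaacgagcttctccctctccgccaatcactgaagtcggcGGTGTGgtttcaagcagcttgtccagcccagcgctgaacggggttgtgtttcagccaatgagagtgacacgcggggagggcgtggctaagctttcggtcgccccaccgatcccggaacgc
The Ifng window has a GC content of 46.0% and carries a TATA box, found in 13.6% of 32851 RefSeq windows of this length and in 1 of the 9 genes. The Ifngr2 window, of 74.3% GC, has no TATA match and 4 matches, one pair sharing a base, to the GC box GGGCGG (left in lower case), a motif found in 35.7% of all windows and in 8 of the 9 genes. The Stat2 window alone among the 9 holds an interferon-stimulated response element core, TTTCAGTTTC as read on this strand, which 3.44% of all windows hold. A gamma-activated site lies in the windows of Ifng, Ifnar1 and Ifnar2, 3 of the 9 genes, against 8.3% of all windows, and a T-box core in those of Ifngr2, Ifnar2 and Stat2, against 19.0%. These are matches of letters in a short window, with no measurement of binding.

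Of the interferon gamma receptor chains, Ifngr2 rose and Ifngr1 did not pass. Ifngr2, the signal-transducing chain that brings Jak2, had log2 signals of 8.53, 9.02 and 8.50 in TLR7tg mice, against 7.07, 7.20 and 7.55 in B6 mice. Its groups were apart by 0.95. The mean was 8.68 ± 0.30 in TLR7tg and 7.27 ± 0.25 in B6 (SD, n = 3 each), and Ifngr2 rose by 1.41 (SE 0.21, limma adjusted p = 0.00313), or 2.66-fold. It was 1.46 on the shared slide and 1.39 among the other 4 mice. Of its other probes, one rose by 1.27 (limma adjusted p = 0.00265) and one had a difference of 0.76 that did not pass (adjusted p = 0.135). Ifngr1, the ligand-binding chain that brings Jak1, had signals of 10.90, 10.94 and 10.26 in TLR7tg mice, against 10.84, 10.61 and 10.96 in B6 mice. These groups overlapped, and the difference was -0.10 (95% interval -0.61 to 0.40, limma adjusted p = 0.854). Within the mouse, Ifngr1 relative to Ifngr2 changed by -1.51 between the groups, without overlap (gap 1.03, exact permutation p = 0.10, two-sided, the smallest that 3 mice against 3 allow, and 0.175 after Benjamini-Hochberg adjustment over 21 pairs chosen after the values were seen).

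The type I interferon receptor gave no call. Ifnar2 had log2 signals of 8.36, 8.23 and 7.79 in TLR7tg mice, against 8.40, 8.10 and 8.06 in B6 mice, with overlapping groups. Its difference was -0.06 (95% interval -0.52 to 0.41, limma adjusted p = 0.921), and its other probes differed by 0.10 and 0.01. Ifnar1, which pairs with Tyk2, was not above background in any mouse, at 6.50, 6.48 and 6.62 in TLR7tg mice and 6.50, 6.59 and 6.60 in B6 mice on its single probe. On the arrays of replicate 1 its detection p-values were 0.702 and 0.918 in TLR7tg and 0.741 and 0.917 in B6. No difference can be read from it, and the signal of this 1 probe does not show that the receptor chain is absent.

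The genes of these chains lie together. In the RefSeq annotation of GRCm38.p6, Ifnar2, Il10rb, Ifnar1 and Ifngr2 follow each other on chromosome 16, with Tmem50b, a membrane protein gene, next to Ifngr2. Of 12 measured genes in and beside this cluster 2 rose and 0 fell by limma (1 lower at an unadjusted p under 0.05). Among all genes 7.74% were called higher and 6.97% lower. Ifngr2 itself is 1 of the 2 that rose, and with so few genes the count is not a result about the cluster. Tmem50b had signals of 10.61, 10.10 and 9.81 in TLR7tg mice, against 8.67, 8.02 and 8.62 in B6 mice, and rose by 1.74 (limma adjusted p = 0.00288). It was the only one beside Ifngr2 that rose. Il10rb, a chain shared by receptors for interleukin 10 and type III interferon, differed by -0.52 with overlapping groups and did not pass. The genes that follow, Dnajc28 (0.06), Gart (0.05), Son (0.12), Donson (0.09), Cryzl1 (0.11), Itsn1 (-0.04), Atp5o (-0.32) and Mrps6 (-0.54), did not pass either.

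Of the kinases, Jak1 fell, and Jak2 and Tyk2 did not pass. Jak1, which serves both receptors, had log2 signals of 7.32, 7.83 and 7.48 in TLR7tg mice, against 8.25, 8.85 and 8.56 in B6 mice. The groups did not overlap (gap 0.42), the mean was 7.54 ± 0.26 in TLR7tg and 8.55 ± 0.30 in B6 (SD, n = 3 each), and Jak1 fell by 1.01 (SE 0.22, limma adjusted p = 0.0160), or 2.01-fold lower in TLR7tg. On the shared slide it differed by -0.94, and by -1.05 among the other 4 mice. Of its other probes, one fell by 0.81 (limma adjusted p = 0.0105) and one differed by -0.50 and did not pass (adjusted p = 0.201). The call of Jak1 ended without B6 replicate 2 (limma adjusted p = 0.0782) or B6 replicate 3 (adjusted p = 0.0536), and its adjusted p ran from 0.00169 to 0.0782 over all settings tried.

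Jak2, the kinase of the Ifngr2 chain, had signals of 10.001, 10.54 and 9.28 in TLR7tg mice, against 10.01, 9.34 and 9.40 in B6 mice. TLR7tg mice were both the highest and the lowest of the 6. The difference was 0.36 (95% interval -0.37 to 1.08, limma adjusted p = 0.581), and 0.37 on the second measured probe, while another pair of Jak2 probes was below the detection level in all mice. Tyk2, the kinase of the type I receptor, had signals of 9.47, 10.22 and 9.97 in TLR7tg mice, against 10.40, 10.54 and 10.85 in B6 mice. Its groups were apart by 0.18, and its difference of -0.71 (SE 0.23) did not pass (limma adjusted p = 0.0797). Tyk2 passed with a block that sets the shared slide of replicate 1, read from array names, against the other 4 mice, whose slides are not known (limma adjusted p = 0.0161). It also passed with mice of neighbouring identifiers paired as blocks (limma adjusted p = 0.0191). The difference was -0.94 on the shared slide and -0.60 among the other 4 mice. The other Tyk2 probes differed by -0.34 and -0.02 and did not pass, with groups that overlapped.

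Stat2, the STAT that joins Irf9 in ISGF3 and is itself stimulated by type I interferon, did not pass. Its log2 signals were 8.18, 8.53 and 8.74 in TLR7tg mice, against 7.62, 7.83 and 8.14 in B6 mice. The nearest mice of the groups were only 0.03 apart. The difference of 0.62 (SE 0.22, 95% interval 0.13 to 1.11) did not pass (limma adjusted p = 0.0998), but passed with the same slide block (adjusted p = 0.0219) and with neighbouring identifiers paired (adjusted p = 0.0151). It was 0.56 on the shared slide and 0.65 among the other 4 mice.

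**Figure D2:**
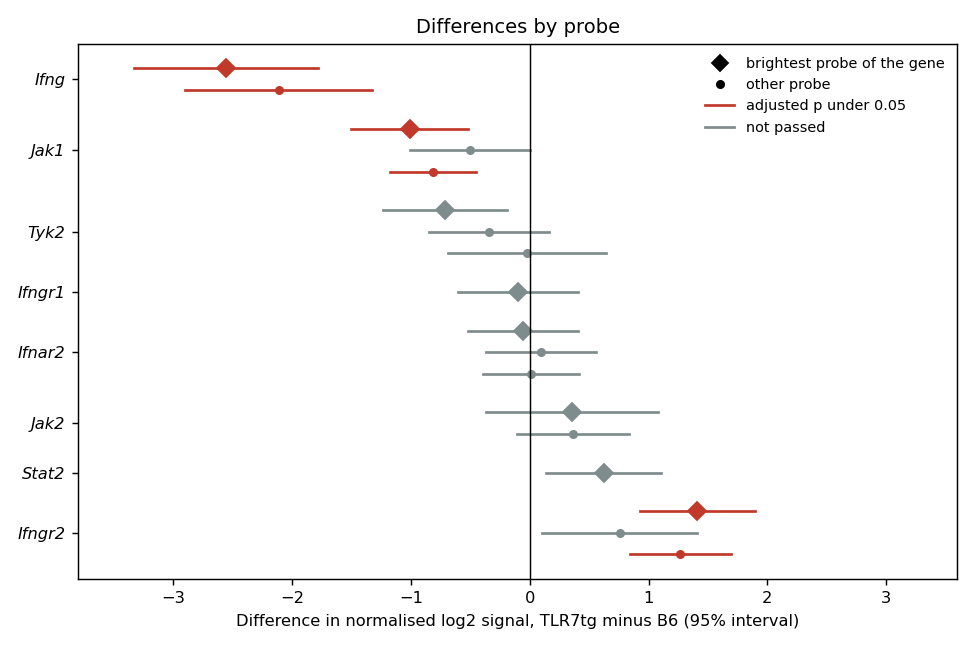
Difference in normalised log2 signal, TLR7tg minus B6, of the 18 measured probes (x axis) with 95% intervals, by gene (y axis). Diamonds are the brightest probe of a gene and dots its other probes, and red marks probes with an adjusted p under 0.05. Both Ifng probes are red on the left, 2 of 3 Ifngr2 probes are red on the right, and all Ifnar2 and Jak2 intervals include 0.

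Ifng was then set against each other gene within the mouse, which compares changes and not levels of different probes. Between the groups, Ifng changed by -3.97 relative to Ifngr2 and by -3.18 relative to Stat2. It changed by -2.92 relative to Jak2, by -2.50 relative to Ifnar2 and by -2.46 relative to Ifngr1. The smallest changes were those relative to Tyk2 (-1.85) and Jak1 (-1.55). In all 7 pairs the TLR7tg mice lay below the B6 mice without overlap, with gaps of 0.43 (Jak1) to 2.46 (Ifngr2). Against all 9172 other measured genes, Ifng gave no overlap in 98.1%, so the count of 7 is near the background and is not a result about these genes. Each exact permutation p was 0.10 (two-sided), also after Benjamini-Hochberg adjustment over the 7 pairs, and this is the smallest value the design allows, so none could pass 0.05. The SD of the difference between Ifng and Stat2 was 0.11 in TLR7tg mice and 0.86 in B6 mice, and that between Ifng and Ifngr2 was 0.50 in TLR7tg mice and 0.87 in B6 mice. Among the 21 pairs without Ifng, 12 did not overlap, beside 36.7% of all pairs of measured genes without Ifng, and the 21 pairs share their 7 genes. The widest of these was Ifngr2 relative to Jak1, which changed by 2.42.

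**Figure D3:**
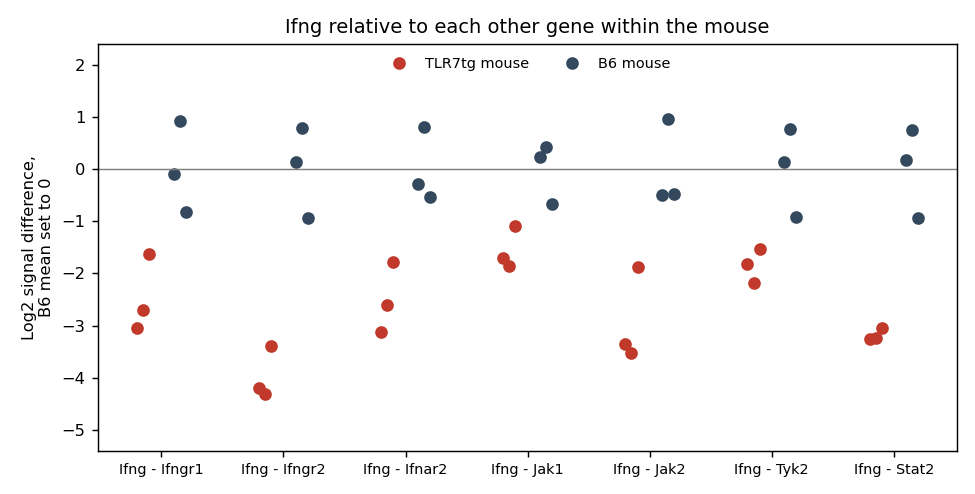
Log2 signal of Ifng minus that of each other gene within a mouse (y axis), shifted so that the B6 mean of each pair is 0, with TLR7tg mice to the left of B6 mice in each pair (x axis). All TLR7tg points lie below all B6 points in the 7 pairs, furthest for Ifngr2 (-3.97) and least for Jak1 (-1.55).

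Ifng and Ifngr2 differed between the groups together with cell type markers. The mean log2 signal of the 20 NK markers was 7.67, 7.73 and 8.67 in TLR7tg replicates 1, 2 and 3, against 10.98, 10.90 and 10.97 in those of B6. Within TLR7tg mice, replicate 3 had the highest Ifng and the highest NK mean. In B6 mice Ifng ran between 9.25 and 10.63 with NK means between 10.90 and 10.98, and replicate 2 had the highest Ifng and the lowest NK mean. The median difference of the NK markers was -2.93, beside -2.56 for Ifng. In these NK values, 5 of the 20 markers were measured only through the B6 mice, so they had to differ to pass the filter. The mean of the 26 monocyte and macrophage markers was 10.14, 10.12 and 10.19 in TLR7tg mice, against 8.86, 9.34 and 9.30 in B6 mice, with a median difference of 0.90 (0.78 with genes at their bound) beside 1.41 for Ifngr2. Within TLR7tg mice, replicate 2 had the highest Ifngr2 (9.02) and the lowest monocyte mean. In replicate 3 Ifngr2 was lowest (8.50) and the monocyte mean highest. These monocyte means lie close together, and an order of 3 mice decides nothing, here or for Ifng. The part of these cell type markers in the differences of Ifng, Ifngr2 and Jak1 was not tested.

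**Figure D4:**
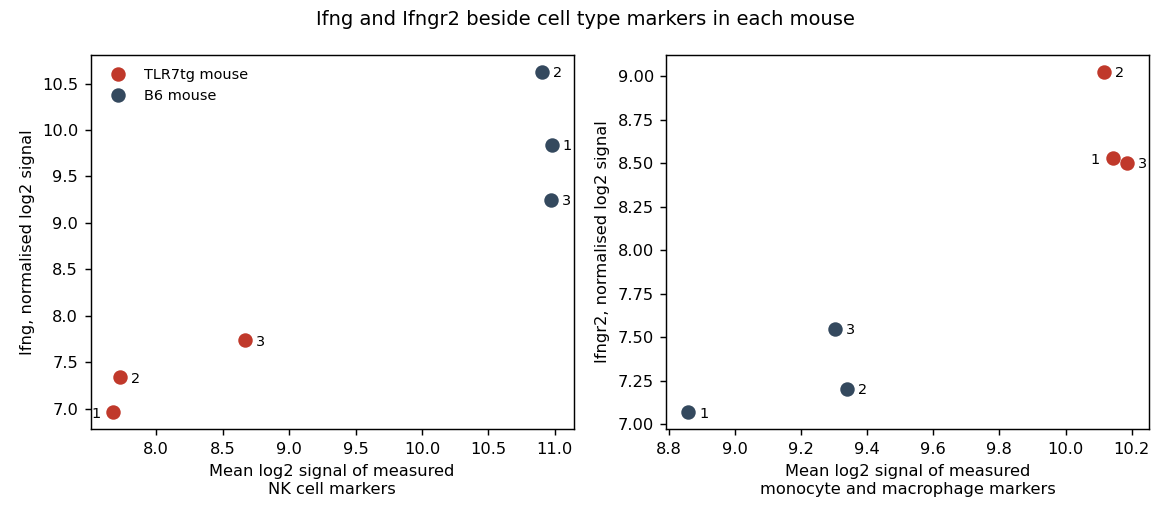
Normalised log2 signal of Ifng against the mean log2 signal of 20 NK cell markers (left panel), and of Ifngr2 against that of 26 monocyte and macrophage markers (right panel), with 1 point per mouse and its replicate number. TLR7tg mice sit at low NK means (7.67 to 8.67) and low Ifng, and at high monocyte means (10.12 to 10.19) and high Ifngr2. Of the NK markers 5 were measured only through the B6 mice.

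By pattern over the 6 mice, after each gene was centred on its own mean, the genes nearest to Ifng were Fasl, the death ligand of cytotoxic lymphocytes (root mean square difference 0.346), Fcna, which encodes ficolin A (0.346), and Hs3st3b1, a heparan sulfate sulfotransferase (0.362). Their differences were -2.96, -2.47 and -2.68. Fasl is also among the NK markers. Nearest to Ifngr2 were the copper transporter gene Slc31a1 (0.0832), the aminopeptidase gene Rnpep (0.0980) and Arhgef11 (0.109), and nearest to Jak1 were the keratin gene Krt86 (0.0667), Mis18a, whose product acts at centromeres (0.0831), and Ccser2 (0.112).

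Among the other JAK-STAT genes, Stat4 fell. Of 6 measured genes 1 fell and 0 rose by limma (0 at an unadjusted p under 0.05), with a median of 0.06. With 6.97% of all genes called lower, 1 of so few genes is not a result about the list. Stat4, which carries the interleukin 12 signal, had log2 signals of 8.60, 9.04 and 9.04 in TLR7tg mice, against 12.37, 11.69 and 12.01 in B6 mice, and fell by 3.13 (SE 0.23, limma adjusted p = 0.000189). Its groups were apart by 2.64. Jak3, the kinase of the common gamma chain, differed by -0.10, Stat3, which serves interleukin 6 and 10 receptors, by 0.48, Stat5a by -0.03 and Stat6, the STAT of interleukin 4, by 0.15, and none of these passed. Irf9 was 10.23, 10.29 and 9.98 in TLR7tg mice, against 9.84, 9.92 and 9.65 in B6 mice. These groups did not overlap, and the difference of 0.37 did not pass (limma adjusted p = 0.238). Stat5b was not above background in any mouse, and 1 further gene of the list was not analysed here.

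Receptor chains and transcription factors linked to Ifng transcription fell in part. Of 14 measured genes 8 fell, 1 rose and 5 did not pass, with a median of -0.92. The shares called over all genes were 6.97% lower and 7.74% higher. Of the 9 that reached the detection level in all 6 mice, 4 fell and 0 rose by limma. The interleukin 18 receptor gene Il18r1 fell by 3.20 (limma adjusted p = 0.000224), and its partner Il18rap fell by 2.41. Tbx21, the gene of T-bet, was 8.01, 7.70 and 8.17 in TLR7tg mice, against 11.85, 10.41 and 10.31 in B6 mice, and fell by 2.90 (limma adjusted p = 0.00150). Eomes, a related T-box factor, was under 6.9 in every TLR7tg mouse and at least 5.36-fold lower. It was measured only through the B6 mice, so it had to differ to pass the filter. The interleukin 12 receptor genes Il12rb2 (-1.15, adjusted p = 0.00518) and Il12rb1 (-0.68, adjusted p = 0.0341), named after their values were seen, fell by limma too. In TLR7tg mice both lay around the detection level, Il12rb2 at 7.01, 6.73 and 6.87 and Il12rb1 at 6.93, 7.07 and 6.85. The sizes of such dim differences are understated. The 1 gene that rose, named for that reason after its value was seen, was Atf3 (1.58), a stress-induced transcription factor reported in mouse NK cells to restrain Ifng. Atf3 lay around the detection level in B6 mice, at 6.89, 7.16 and 6.75. Tbx21, Eomes and Il2rb (-1.75, called lower and named here for this overlap) are also NK markers, whose sums are given above. The part of those markers was not tested. Il2rb too lay around the detection level in TLR7tg mice, at 6.93, 6.80 and 7.06.

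Some regulators that restrain JAK-STAT signalling rose. Of 15 measured genes 4 rose and 0 fell by limma (3 lower at an unadjusted p under 0.05), with a median of 0.07. Over all genes the shares were 7.74% higher and 6.97% lower. Socs3, an inhibitor induced by STAT3, had log2 signals of 10.96, 12.09 and 12.46 in TLR7tg mice, against 8.53, 9.81 and 9.93 in B6 mice, and rose by 2.41 (SE 0.45, limma adjusted p = 0.00808). The phosphatase genes Ptpn1 (1.41) and Ptpn6 (1.17) rose, as did Usp18 (1.002, limma adjusted p = 0.0343), an inhibitor that acts at the Ifnar2 chain. The sums of monocyte and neutrophil markers given above were higher in the same mice, and their part in these rises was not tested. With either block 3 of these genes fell and 4 rose, and with no filter on low signals 1 rose. Without a block, those lower at an unadjusted limma p under 0.05 were Socs2 (-0.52), Cish (-0.60) and Pias3 (-0.72). They were named after their values were seen, and none passed after adjustment.

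Many known targets of both interferon classes rose, in samples with higher monocyte and neutrophil marker sums whose part was not tested. Among 20 measured targets of interferon gamma, 11 rose and 0 fell by limma (1 lower at an unadjusted p under 0.05), with a median of 0.88. Limma called 7.74% of all genes higher and 6.97% lower. In every B6 mouse 1 of the 20 was under 6.9, so it had to differ to pass the filter. Of the 18 that reached the detection level in all 6 mice, 10 rose and 0 fell by limma. The chemokine gene Cxcl9 was 9.04, 10.57 and 11.32 in TLR7tg mice, against 7.30, 7.93 and 7.92 in B6 mice, and rose by 2.59 (limma adjusted p = 0.00874). Gbp2, a guanylate-binding protein gene, rose by 2.14, Fcgr1, a high-affinity IgG receptor gene, rose by 1.62 and Gbp3 rose by 1.33. Fcgr1 is also among the monocyte markers. The number that rose was 6 without any one mouse other than TLR7tg replicate 1, and 6 with dim probes included.

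Of 32 measured genes stimulated by type I interferon 18 rose and 0 fell by limma (0 at an unadjusted p under 0.05), with a median of 0.84. The share called higher over all genes was 7.74%. In every B6 mouse 1 of the 32 was under 6.9, so it had to differ to pass the filter. Of the 23 that reached the detection level in all 6 mice, 13 rose and 0 fell by limma. Oasl2, of the oligoadenylate synthetase family, rose by 2.95, Ifi205 rose by 2.50, Oas2 rose by 2.47 and Ifit3 rose by 2.30 (limma adjusted p = 0.000547). Oas2 was 8.50, 11.33 and 10.75 in TLR7tg mice, against 6.95, 7.78 and 8.44 in B6 mice, so that the lowest TLR7tg mouse was only just above the highest B6 mouse. Stat2, Irf9 and Usp18, named above, are in this list. It was 8 genes when B6 replicate 2 was left out, 11 without B6 replicate 3 and 12 without TLR7tg replicate 2, and 9 with dim probes included.

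**Figure D5:**
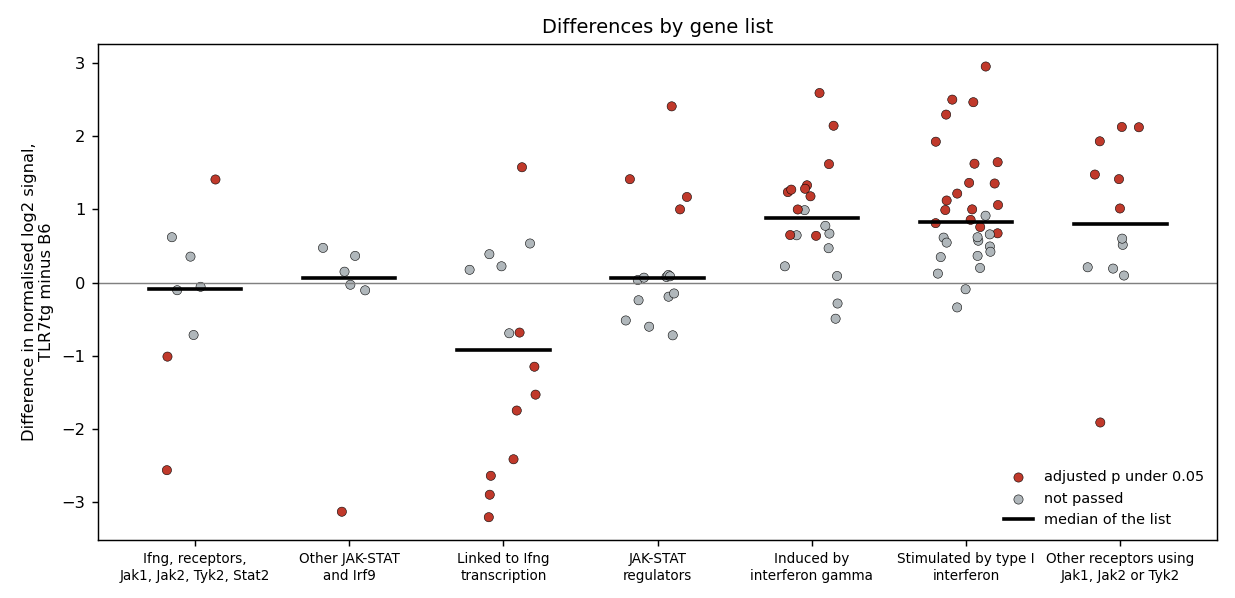
Difference in normalised log2 signal, TLR7tg minus B6, of each measured gene (y axis) in 7 gene lists (x axis), with red points for an adjusted p under 0.05 and a bar at the median of the list. Genes linked to Ifng transcription have a median of -0.92, and genes induced by interferon gamma (0.88) or stimulated by type I interferon (0.84) have medians above 0.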

How the data were processed

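The authors deposited normalised log2 values of 45281 probes for 6 mice. Their sorted columns differ by at most 0.0085, as after quantile normalisation, with a tool not named in the labels. No background subtraction is visible, so differences of dim genes are understated, and folds hold on the deposited scale. Replicate 1 of either group is a mean of 2 technical arrays, per the labels. The deposited scanner table holds linear intensity and a detection p-value per array, per the file headers. Its 4 arrays named in the labels were used, and 8 columns that match no mouse were not.

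The detection level, 6.9, is the lowest bin (width 0.1) from which upward 95% or more of the probes were detected (mean p-value under 0.05) on the named arrays of either mouse. The 16535 probes at or above it in at least 3 mice were tested together with limma 3.58.1 in R 4.3.3 (lmFit, eBayes), with Benjamini-Hochberg adjustment over all of them and calls at 0.05. Each difference is TLR7tg minus B6 in log2 units. Where every mouse of a group was under 6.9, the gene is given as "at least N-fold", with the brighter group's mean set against 6.9. The summed linear signals of marker lists include background. Symbols came from the platform annotation (1 symbol for 34885 probes, several for 18, none for 10378), checked against RefSeq (GRCm38.p6).

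The genes and lists were chosen with earlier results of these data known. Named are the 9 genes, the JAK-STAT and chromosome 16 lists in full, up to 4 of the largest called differences of other lists, and the 3 genes nearest in pattern. Exceptions are marked. Apart from the title of TLR7tg replicate 1, the labels give each mouse its own identifier, and p-values are read as measuring the spread between mice. They pair no mice, and replicate numbers are only names. Deviations from the group means of mice with neighbouring identifiers correlated at 0.629, 0.125 and 0.447 over the kept probes, and TLR7tg replicate 2 correlated better with B6 replicate 3 (0.208). Alternatives were other filters, scalings, variance models, blocks, a gene's mean probe, and each mouse left out. The fit was tested on simulated data. Precision is limited by the number of mice, 3 a group with 1 value each.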

Additional observations from a re-analysis of the deposited data

How the results depend on the processing

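Over 17 other settings, Ifng (-3.23 to -2.20, adjusted p from 0.000625 to 0.0201) and Ifngr2 (1.14 to 1.97, adjusted p from 0.00108 to 0.0204) passed in each. Jak1 passed in 15, and its difference ran from -1.16 to -0.86 with 1 mouse left out. Tyk2 passed with array weights (-0.70), the block of the shared slide against the other mice and the replicate block of neighbouring identifiers (-0.71 in both). Stat2 passed with either block (0.62) and without TLR7tg replicate 1, and ran from 0.49 to 0.78 with 1 mouse left out. Differences near 0 changed sign. Ifngr1 ran from -0.22 to 0.12 and Ifnar2 from -0.17 to 0.11 with 1 mouse left out, and Ifnar2 was 0.0046 with cyclic loess and 0.018 with the mean of its probes. The pairs of Ifng with each other gene kept their direction in every setting run.

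The replicate block gave 1118 higher and 1166 lower genes among all, against 710 and 639 without it, and the slide as a block gave 1083 lower. Without a filter on dim probes 459 were higher. With 1 mouse left out 421 to 756 were higher and 341 to 629 lower. Of the 9 genes 2 were higher and 3 lower with either block, 3 were lower with array weights, and 1 to 2 were higher and 1 to 2 lower with 1 mouse left out.

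Of JAK-STAT regulators 1 was higher without a filter, and 1 was lower with array weights, 3 with either block and 0 to 1 with 1 mouse left out. Of genes linked to Ifng transcription 4 were lower and 0 higher with detection in all 6 mice, and 2 were higher with either block. Of genes induced by interferon gamma 6 were higher and 1 lower without a filter, 1 was lower with either block, and 6 to 12 were higher with 1 mouse left out. Of genes stimulated by type I interferon 9 were higher without a filter and 8 to 21 with 1 mouse left out. The cause of these changes was not tested. Without a filter more probes are tested, and with a mouse left out fewer mice.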

Other observations

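Other cytokine receptors that use Jak1, Jak2 or Tyk2 rose in part. Of 12 measured chains 6 rose, 1 fell and 5 did not pass, with a median of 0.81. By limma 7.74% of all genes rose and 6.97% fell. In every B6 mouse 1 of the 12 was under 6.9, so it had to differ to pass the filter. Il6ra, the interleukin 6 receptor, had log2 signals of 9.91, 10.99 and 10.39 in TLR7tg mice, against 7.65, 8.35 and 8.91 in B6 mice, and rose by 2.13 (limma adjusted p = 0.00483). Il13ra1, which pairs with the interleukin 4 receptor chain, rose by 2.12 (limma adjusted p = 0.000794), and Csf2ra, the receptor chain for granulocyte-macrophage colony-stimulating factor, rose by 1.93. Il7r, the interleukin 7 receptor of lymphocytes, was 7.75, 8.64 and 8.73 in TLR7tg mice, against 10.15, 10.61 and 10.09 in B6 mice, and fell by 1.91 (limma adjusted p = 0.00267). Csf2ra is also among the monocyte markers.

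Of 4 measured chains of the class II cytokine receptor family 1 rose and 0 fell by limma (0 at an unadjusted p under 0.05). Beside 7.74% of all genes called higher, 1 of so few genes is not a result about the family. Ifnlr1, the type III interferon receptor chain, was 7.82, 8.44 and 8.48 in TLR7tg mice, against 6.82, 7.29 and 6.90 in B6 mice, and rose by 1.24 (limma adjusted p = 0.00798). Of 18 interferon ligand genes other than Ifng, 4 were measured and 0 passed by limma (0 at an unadjusted p under 0.05), among them Ifnab (-0.20) and Ifna1 (0.11), named after their values were seen. Ifnb1, named likewise, was below the detection level in all 6 mice. Interferon alpha genes are similar in sequence, so the values of single members are uncertain.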
